A study of Mus musculus with 2 samples.

Results

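The nuclear-encoded respiratory chain genes are the genes of the cell nucleus whose proteins are built into complexes I, III, IV and V of the mitochondrial inner membrane. They were chosen by symbol: rows that begin with Nduf followed by a, b, c, s or v and a number, with Cox4 to Cox8, with Uqcr or with Atp5, leaving out Cox6a2 and symbols that hold -ps. The rule found 79 of the 32285 genes in both libraries, 37 of complex I, 8 of complex III, 17 of complex IV and 17 of complex V. Complexes were assigned by symbol, so Ndufa4 is counted in complex I throughout, although its protein is now placed in complex IV. UMIs, the counted single transcript molecules, were found for 77 of the 79, and none for Cox7b2 and Cox8c.

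The respiratory chain passes electrons from NADH through complex I, ubiquinone, complex III, cytochrome c and complex IV to oxygen, and pumps protons on the way. Complex V, the ATP synthase, lets the protons flow back and makes ATP. Complexes I, III, IV and V hold subunits from both genomes. The mitochondrial DNA encodes a few core subunits, named mt-Nd, mt-Cytb, mt-Co and mt-Atp, and the nucleus encodes all others. Each of these complexes needs products of both genomes. In immune cells the chain is known to be run down in some inflammatory macrophages and raised in dividing cells.

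Single cells were profiled from the central nervous system of C57BL/6 mice with experimental autoimmune encephalomyelitis (EAE), a mouse model of multiple sclerosis induced here with a MOG peptide, complete Freund's adjuvant (CFA) and pertussis toxin (PTX). The WT mice gave 1 library and the Stat4fl/flCD11cCre mice gave another 1; in the latter, Cre under the CD11c promoter deletes the floxed gene for STAT4, a transcription factor used by interleukin 12, in cells that express CD11c. Both groups were immunized, cells were taken on day 15, and the cells of each group were pooled before a sort for MHC class II and CD11c. No unimmunized mice and no WT mice with the Cre alone were analysed here. With 1 pooled library per genotype no difference between genotypes can be tested: intervals below are 95% and cover counting error only, not the spread between mice.

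The libraries were of similar size, with 13298 kept barcodes in WT and 12305 in Stat4fl/flCD11cCre, medians of 6440.5 and 6878 gene UMIs per cell, and 42 kept barcodes in common. In all pairs of values below, WT comes first. Marker gates placed 70.3% and 79.9% of the kept cells in a type, and 12 types had at least 50 cells in each library; a type name stands for cells with at least 3 of that type's markers and at least 2 more than of any other type. The gates held cells that the sort should lack: H2-Aa, of MHC class II, was at 8793 and 9003 CPM (UMIs per 1000000 gene UMIs) in cDC2 but at 379 and 345 CPM in T cells, and Itgax, which encodes CD11c, was at 17.2 and 13.4 CPM in T cells against 121 and 127 CPM in cDC2. Stat4 was at 58.8 and 40.9 CPM over all kept cells, at 115 and 76.1 CPM in cDC2 and at 398 and 374 CPM in NK cells; a tag at the 3' end need not lie in the deleted part, so this does not check the deletion.

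Members of complex IV come in tissue isoforms, and 2 pairs of them are shown by their promoters because their levels were spread differently over the cells: Cox8a and Cox6b1 were abundant in every cell type, while Cox8b and Cox6b2 reached over 100 CPM in choroid plexus epithelium alone of the 12 types (values below). Each run is 260 bases 5' to 3' on the strand of the gene, from 250 bases before the annotated start to 10 after it (RefSeq, GRCm38.p6). All 4 lie on the minus strand: Cox8a at chr19:7217607-7217866, Cox8b at chr7:140900437-140900696, Cox6b1 at chr7:30626105-30626364 and Cox6b2 at chr7:4753085-4753344. Capitals mark a match to 1 of 3 motifs of factors known to act on respiratory chain genes, searched on both strands: TGCGCA (from the site of NRF1), CCGGAAG (ETS factors such as GABP) and AAGATGGC (YY1).
Cox8a: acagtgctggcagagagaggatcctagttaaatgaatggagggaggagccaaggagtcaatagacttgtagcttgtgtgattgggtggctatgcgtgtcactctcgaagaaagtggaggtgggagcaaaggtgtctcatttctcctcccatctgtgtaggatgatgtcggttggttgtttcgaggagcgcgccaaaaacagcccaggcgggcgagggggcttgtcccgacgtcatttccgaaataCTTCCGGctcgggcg
Cox8b: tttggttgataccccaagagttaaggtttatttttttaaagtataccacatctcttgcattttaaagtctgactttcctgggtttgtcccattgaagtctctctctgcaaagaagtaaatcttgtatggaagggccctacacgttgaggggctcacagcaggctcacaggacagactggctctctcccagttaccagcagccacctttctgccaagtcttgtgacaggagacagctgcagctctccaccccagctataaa
Cox6b1: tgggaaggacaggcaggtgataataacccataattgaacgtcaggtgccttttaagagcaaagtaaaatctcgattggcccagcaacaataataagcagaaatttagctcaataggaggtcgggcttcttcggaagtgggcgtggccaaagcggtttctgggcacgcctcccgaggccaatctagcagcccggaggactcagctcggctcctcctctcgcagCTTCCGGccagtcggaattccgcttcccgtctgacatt
Cox6b2: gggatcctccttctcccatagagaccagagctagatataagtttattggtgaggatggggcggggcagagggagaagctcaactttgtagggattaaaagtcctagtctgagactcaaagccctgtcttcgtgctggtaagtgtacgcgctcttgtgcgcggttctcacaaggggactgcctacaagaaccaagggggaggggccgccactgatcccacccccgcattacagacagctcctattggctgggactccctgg
The window of Cox8a held 1 ETS match, at base -5 from the start, and that of Cox6b1 held 1, at base -28, both on the opposite strand. The windows of Cox8b and Cox6b2 held none of the 3, which says only that these letters are not in these bases. Cox7a2 and Cox7a1 are another common and tissue isoform, and their promoters are not printed. Neither of their windows of 300 bases held any of the 3 motifs, so the common isoform does not always have a match. Among the 64 members matched to a promoter of 300 bases in the RefSeq table, 15 (23.4%) held the ETS motif, against 9.93% of 27025 genes. The NRF1 motif was in 15 members (23.4%), against 8.79% of all genes, and the YY1 motif in 9 (14.1%), against 3.19%. At least 1 of the 3 was in 32 of the 64 members and in 19.3% of all genes. A match is a run of letters and not a shown binding site.

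Choroid plexus epithelium, the secretory layer that makes cerebrospinal fluid, gave by far the largest part of its transcripts to the respiratory chain. Members took 7.89% (interval 7.84 to 7.94) of gene UMIs in WT and 7.90% (7.84 to 7.96) in Stat4fl/flCD11cCre. H2-Aa was at 257 and 4.24 CPM, and the defining marker Ttr at 253308 and 303585 CPM. Their 138 and 82 cells had median depths of 7521 and 8633.5 UMIs, and 63.8% and 53.7% of them had over 5% mt- UMIs, so that the ceiling of 10% mt- UMIs applied to all cells falls inside this type.

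Monocytes, macrophages, dendritic cells and lymphocytes lay close together. The share was 2.22% and 2.37% in classical monocytes, 2.11% and 2.08% in inflammatory macrophages, 1.81% and 1.73% in nonclassical monocytes, 2.37% and 2.20% in cDC1, and 2.17% and 2.03% in cDC2. It was 2.17% and 2.20% in plasmacytoid DC, 2.28% and 2.24% in T cells and 2.22% and 2.24% in NK cells. Several neighbours in this order did not differ beyond counting error: in WT the intervals of classical monocytes (2.21 to 2.22) and NK cells (2.19 to 2.24) overlapped, as did those of cDC2 (2.13 to 2.21) and plasmacytoid DC (2.14 to 2.20).

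Microglia and neutrophils were at the low end. Members took 1.21% and 1.08% of UMIs in microglia, 1.20% and 1.15% in mature neutrophils and 1.14% and 1.01% in neutrophils with granule genes. In WT microglia (1.21 to 1.22) and mature neutrophils (1.18 to 1.23) the intervals overlapped. A share is relative to all other transcripts of the cell, so the number per cell is given beside it. The median cell held 52 and 51 member UMIs among microglia and 161 and 221 among classical monocytes. Mature neutrophils, the shallowest type with medians of 2086 and 2607 UMIs in all, had 23 and 26, and choroid plexus cells had 563 and 588.

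**Figure D1:**
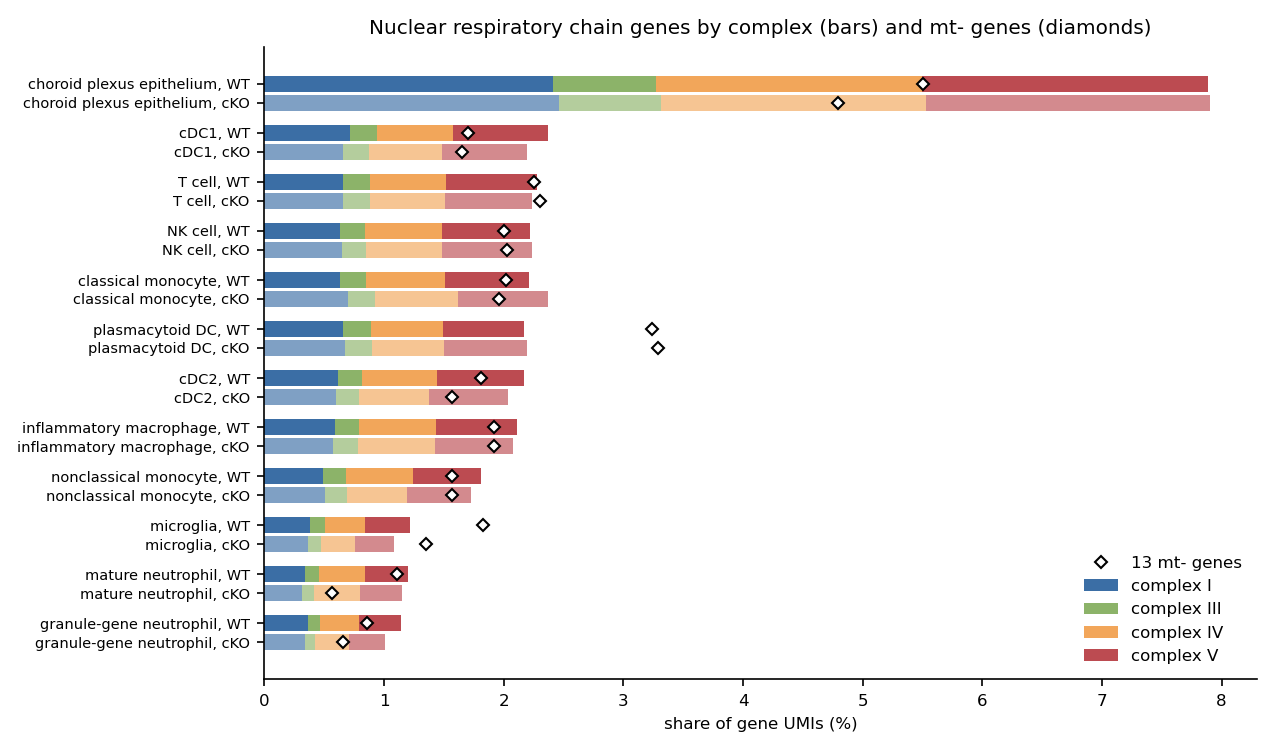
Share of gene UMIs (%, horizontal axis) taken by nuclear members of complexes I, III, IV and V (stacked bars) and by the 13 mt- genes (diamonds) in each cell type and library; paler bars are the Stat4fl/flCD11cCre library, written cKO. Choroid plexus epithelium reaches 7.89% and 7.90%, 8 immune types lie between 1.73% and 2.37%, and microglia and both neutrophil types lie between 1.01% and 1.21%.

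The complexes kept similar proportions in most types. In WT classical monocytes complex I took 28.4% of member UMIs, complex III 9.86%, complex IV 29.9% and complex V 31.8%. In WT choroid plexus the same parts were 30.6%, 11%, 28.1% and 30.4%, although each complex was over 3 times as high as a share of all UMIs (2.41%, 0.866%, 2.22% and 2.40% against 0.630%, 0.218%, 0.662% and 0.705%). WT microglia gave more of the member UMIs to complex I (31.6%) and less to complex IV (27.4%). WT mature neutrophils gave the most to complex IV (32.5%) and WT neutrophils with granule genes gave the most to complex I (32.1%). The 10 most abundant members made up 33.0% of all member UMIs.

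Microglia were set against classical monocytes gene by gene, with a gene called lower if it was at least 1.5-fold lower in both libraries and had at least 50 UMIs over both types in each library. Of 74 members with enough UMIs, 60 were lower and 0 higher, with median log2 ratios of -0.85 and -1.14. Of all genes tested 13.2% were lower, and their medians were 0.54 and 0.62. By complex, 25 of 36 members of complex I were lower, 7 of 8 of complex III, 13 of 13 of complex IV and 15 of 17 of complex V. The core subunits of complex I, which carry the electrons, were less low (summed log2 ratios -0.46 and -0.62 over 7 genes) than its accessory subunits (-0.76 and -0.97 over 28 genes). Cox5b, a nuclear subunit of complex IV, was at 213 and 175 CPM in microglia and 531 and 546 CPM in classical monocytes. None of the 13 mt- genes was 1.5-fold lower in microglia in both libraries.

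In neutrophils most members were also below monocytes, as were many other genes. In mature neutrophils 57 of 73 members were lower, against 34.9% of all genes, and in neutrophils with granule genes 60 of 73, against 56.4%. Some members were exceptions in mature neutrophils. Cox8a was at 960 and 994 CPM there and at 1103 and 1142 CPM in classical monocytes. Atp5l, which encodes subunit g of the ATP synthase membrane part, was at 606 and 686 CPM against 727 and 735 CPM.

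Dendritic cells, T cells and inflammatory macrophages differed from monocytes in few members. Past 1.5-fold either way in both libraries were 3 of 74 members in inflammatory macrophages (18.7% of all genes), 1 of 73 in cDC1 (29.3%), 2 of 73 in plasmacytoid DC (38.9%) and 1 of 74 in T cells (44.4%). Cox6b2 was among them in each of these types, lower than in classical monocytes, and rested on 0 to 36 UMIs in each of them against 138 and 180 in monocytes. The cDC2 went the other way for Cox6b2. There 1 of 73 members was higher, Cox6b2, and 1 was lower, against 6.33% and 15.4% of all genes. Cox7a1 was higher in inflammatory macrophages (log2 0.77 and 1.19), but it was also rare, at only 4.6 and 7.9 CPM there. Ndufs5, an accessory subunit of complex I, was higher in plasmacytoid DC (log2 0.76 and 0.59). The third member in inflammatory macrophages was Ndufa4, described below.

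In choroid plexus 72 of 75 members were at least 1.5-fold higher than in monocytes in both libraries, against 16.2% of all genes. The medians were 1.65 and 1.60 on the log2 scale for members and -0.89 and -1.15 for all genes. All 13 mt- genes were higher too. An exception was Cox7a2l, a relative of Cox7a2, at 263 and 304 CPM in choroid plexus against 367 and 404 CPM in monocytes.

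**Figure D2:**
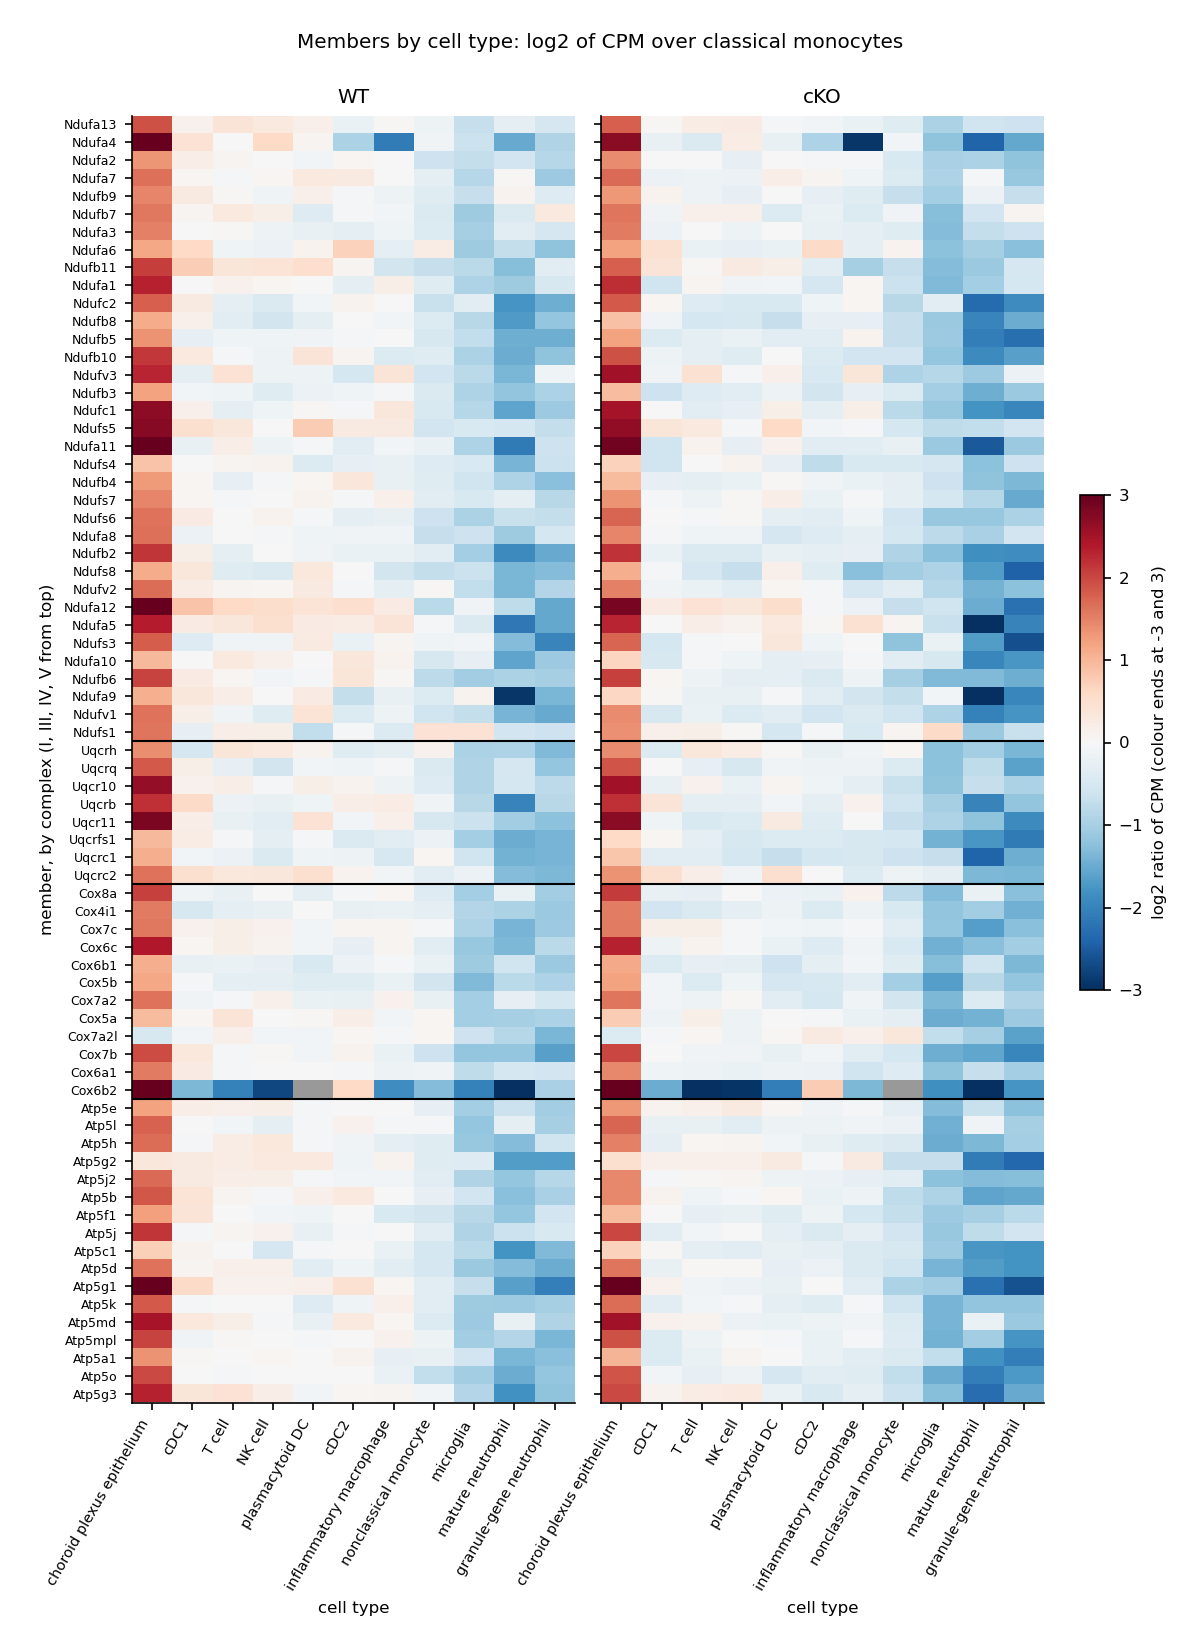
The 72 members drawn, with at least 50 UMIs over both types of every comparison in each library, are rows (by complex and then by abundance) and cell types are columns; colour is log2 of the CPM over that in classical monocytes, for WT and Stat4fl/flCD11cCre (cKO); grey cells are types with 0 UMIs of that gene. The choroid plexus column is red for nearly all members but not for Cox7a2l, microglia and both neutrophil columns are blue for most members, and Ndufa4 is dark blue in inflammatory macrophages.

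The most abundant members of complex I were Ndufa13, an accessory subunit also known as GRIM-19, with 341 and 302 CPM over all kept cells, Ndufa4 with 248 and 269 CPM, and Ndufa2 with 270 and 231 CPM. Reads lie at 3' ends and each molecule gives 1 UMI whatever its length, so levels of different genes are given without a division by length. Ndufa13 was at 229 and 206 CPM in microglia, at 487 and 465 CPM in T cells and at 1392 and 1379 CPM in choroid plexus. By the ratio of the highest to the lowest of the 8 types with at least 100 cells in each library, the members of complex I that varied most were Ndufa4, Ndufs8 and Ndufc2 among those with at least 50 UMIs in each type. Some with fewer UMIs had wider ratios, such as Ndufa9 with 8.87-fold and 8.01-fold from as few as 8 UMIs; the same limit applies to the rankings of the other complexes. Ndufs8, a core subunit that holds iron-sulfur clusters, was at 160 and 175 CPM in plasmacytoid DC and at 50.3 and 49.6 CPM in mature neutrophils. Ndufc2, an accessory subunit of the membrane arm, was at 58.0 and 45.4 CPM in mature neutrophils, and at 157 and 181 CPM in microglia it was not among the members lower there.

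Complex III was led by Uqcrh, the hinge protein, with 547 and 489 CPM, followed by the small subunits Uqcrq with 325 and 272 CPM and Uqcr10 with 239 and 204 CPM. Uqcrh was highest among immune types in T cells, at 846 and 854 CPM, and lowest in neutrophils with granule genes, at 263 and 259 CPM. Uqcrb, Uqcr11 and Uqcrh varied most over the 8 types among members with at least 50 UMIs in each. Uqcrb, which binds near the ubiquinone site, was at 66.7 and 73.3 CPM in mature neutrophils against 314 and 322 CPM in inflammatory macrophages. Uqcr11, the smallest subunit, was at 344 and 311 CPM in plasmacytoid DC and at 110 and 68.3 CPM in neutrophils with granule genes.

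Complex IV gave the most abundant member of all, Cox8a, with 887 and 807 CPM over all kept cells. Cox4i1, the regulatory subunit that binds ATP, was at 817 and 784 CPM, and Cox7c, a small membrane subunit, at 619 and 487 CPM. Among members with at least 50 UMIs in each of the 8 types, Cox7b, Cox7c and Cox7a2l varied most. Cox7b ranged from 139 and 114 CPM in neutrophils with granule genes to 440 and 411 CPM in NK cells and 429 and 444 CPM in classical monocytes.

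Cox8b, Cox6b2 and Cox7a1, isoforms of complex IV known from heart, skeletal muscle or testis, reached their highest levels in choroid plexus. Cox6a2, a heart and muscle isoform outside the member list, did not (values in the closing sections). Cox8b, the heart and muscle isoform of subunit 8, was at 834 and 334 CPM there (892 and 236 UMIs). Outside choroid plexus its highest value was 1.98 CPM, from 1 UMI in WT cDC2; WT T cells had 23 UMIs (1.44 CPM), and 0 UMIs were found in most types. Cox6b2, the testis isoform of subunit 6b, was at 336 and 330 CPM in choroid plexus (359 of 903 and 233 of 912 UMIs in all kept cells), at 9.1 and 11 CPM in classical monocytes and at 13.8 and 18.5 CPM in cDC2. Cox7a1, the heart and muscle isoform of subunit 7a, was at 172 and 130 CPM in choroid plexus and at 4.6 and 7.9 CPM in inflammatory macrophages. Each common isoform was higher in choroid plexus as well: Cox8a at 4571 and 4873 CPM, Cox6b1 at 1246 and 1279.9 CPM and Cox7a2 at 1396 and 1439.7 CPM. The lung isoform Cox4i2 was rare, with 1.06 and 0.634 CPM over all kept cells and 0 UMIs in choroid plexus. The difference of Cox8b between the libraries (log2 -1.32, interval -1.53 to -1.11) was not matched by Cox6b2 (log2 -0.03), and with 82 cells in 1 library this type was not among those compared between genotypes.

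The ATP synthase was led by Atp5e, its epsilon subunit, with 755 and 604 CPM over all kept cells, by Atp5l with 561 and 491 CPM and by Atp5h, subunit d of the stator stalk, with 485 and 474 CPM. With at least 50 UMIs in each of the 8 types, the genes that varied most were Atp5g1, Atp5g3 and Atp5g2, which encode the same mature protein, subunit c of the rotating ring, behind different import signals. In classical monocytes Atp5g2 gave 50.3% and 47.2% of their summed UMIs, Atp5g1 29.5% and 31.1%, and Atp5g3 20.1% and 21.7%. In choroid plexus the order was turned: Atp5g1 gave 62.9% and 63.5% and Atp5g2 14.4% and 15.8%. The intervals of Atp5g1 in choroid plexus (61.5 to 64.4 and 61.8 to 65.1) lay far from those in all immune types, whose values ran from 22.5% to 37.4%. Microglia kept the order of monocytes, with 56.7% and 54.8% from Atp5g2, although their summed level was lower (638 and 585 CPM against 946 and 1098 CPM). The 2 neutrophil types had the lowest summed levels, between 241 and 298 CPM.

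Ndufa4 had the widest range over the 8 types of the 58 members with at least 50 UMIs in each of them in both libraries. The gene was named for complex I, and its protein is now placed in complex IV. It was at 299 and 427 CPM in classical monocytes but at 69.9 and 56.5 CPM in inflammatory macrophages, a log2 ratio of -2.10 and -2.92. Mature neutrophils had 104 and 80.5 CPM, cDC2 154 and 223 CPM, microglia 192 and 184 CPM, cDC1 406 and 367 CPM, and NK cells, the highest immune type, 454 and 499 CPM. Choroid plexus had 2783 and 2789 CPM.

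AA467197 (also called Nmes1) encodes a relative of Ndufa4 that is known to take its place in complex IV, and its transcript is the host of miR-147, a miRNA known to act on Ndufa4. In GRCm38 AA467197 lies at chr2:122636986-122641191 on the plus strand, Mir147 at chr2:122640803-122640881 inside an exon of it, and Ndufa4 at chr6:11900292-11907497 on the minus strand. AA467197 is no member, and the pair was looked at after the values of Ndufa4 were seen. It was highest in inflammatory macrophages (1529.5 and 1029.7 CPM), followed in WT by mature neutrophils (1082 and 636 CPM) and cDC2 (1006 and 914 CPM), and low in NK cells (89.3 and 70.1 CPM) and choroid plexus (53.3 CPM and 0 UMIs). Over the 12 types, Spearman's rho between both genes was -0.90 in WT and -0.78 in Stat4fl/flCD11cCre; the types share a library, and no p is given.

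Within single types the same pairing was seen in classical monocytes, where cells without an AA467197 UMI had 399 and 519 CPM of Ndufa4 and cells with one had 213 and 238 CPM. The intervals did not overlap (384 to 414 against 203 to 223 in WT). In monocytes the median depths of the cells without and with a UMI were 7056 and 7848 in WT and 9916 and 9813 in Stat4fl/flCD11cCre. T cells gave 404 against 229 CPM in WT and 421 against 230 CPM in Stat4fl/flCD11cCre, with median depths of 4610 against 6199 and 5254.5 against 7508.5 UMIs. Microglia gave 209 against 158 CPM and 198 against 136 CPM, but there the cells with a UMI were much deeper (12088.5 against 4504 UMIs in WT). Mature neutrophils did not show it: 85.0 against 117 CPM in WT and 76.2 against 84.9 CPM in Stat4fl/flCD11cCre, with overlapping intervals. Between genotypes, AA467197 in classical monocytes was at 726 and 438 CPM (log2 -0.73) and Ndufa4 had a log2 ratio of 0.51 (interval 0.46 to 0.57), short of 1.5-fold.

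**Figure D3:**
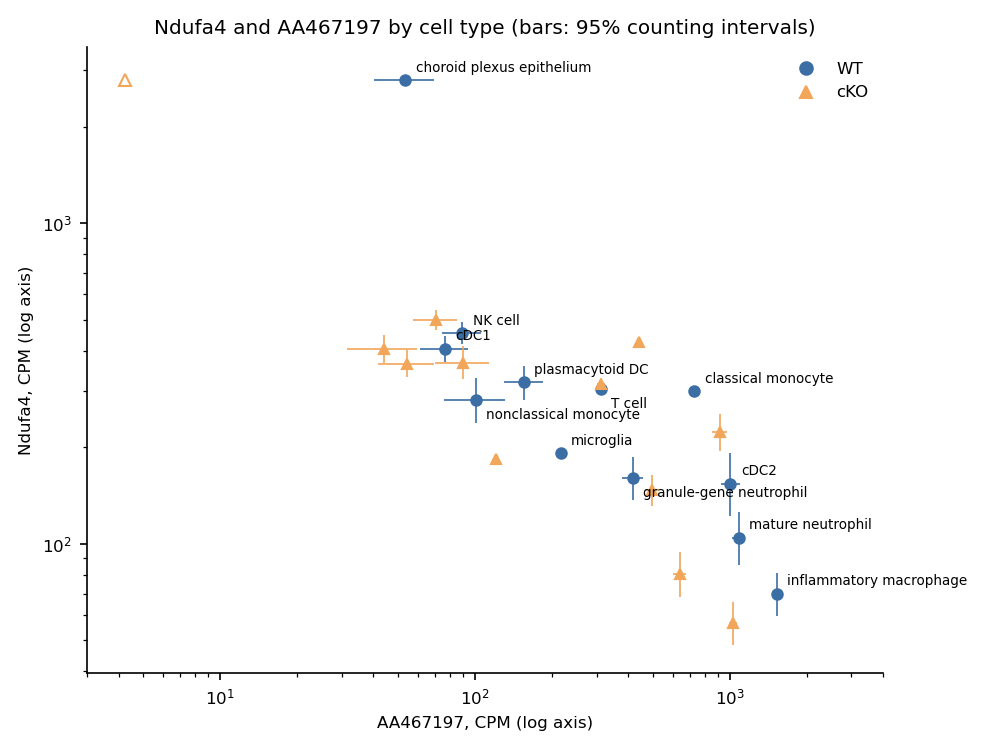
Ndufa4 (vertical) against AA467197 (horizontal), both in CPM on log axes, in 12 cell types of the WT (circles, named) and Stat4fl/flCD11cCre (cKO, triangles) libraries; bars are 95% Poisson counting intervals. Inflammatory macrophages lie at the lower right (1529.5 and 69.9 CPM in WT) and choroid plexus at the upper left; the open triangle has 0 AA467197 UMIs and is drawn at the level of 3 counts.

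Nuclear and mitochondrial transcripts of the same complexes did not keep 1 ratio across cell types. Members gave 1.10 and 1.21 UMIs per mt- UMI in classical monocytes, and 0.664 and 0.804 in microglia. In plasmacytoid DC the ratio was 0.670 and 0.667, near that of microglia in WT and below it in Stat4fl/flCD11cCre. Their member share was like that of monocytes in WT and below it in Stat4fl/flCD11cCre, and their mt- share was 3.24% and 3.29% against 2.02% and 1.96%. Of the 13 mt- genes 11 were at least 1.5-fold higher in plasmacytoid DC than in monocytes in both libraries. In T cells the ratio was 1.01 and 0.974, and in choroid plexus 1.43 and 1.65.

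By complex, with Ndufa4 counted in complex I, the ratio was highest for complex I in both libraries of 10 types. In microglia its lead over complex V was small (1.06 against 1.05 in WT, 1.31 against 1.26 in Stat4fl/flCD11cCre). The ratio without Ndufa4 is not given here. In choroid plexus complex V was higher (2.35 and 2.50 against 1.70 and 2.06), as it was in WT nonclassical monocytes (1.89 against 1.82). In classical monocytes it was 2.12 and 2.48 for complex I, 1.44 and 1.51 for complex III, 0.573 and 0.625 for complex IV and 1.69 and 1.79 for complex V. Complex IV, whose 3 mitochondrial subunits form its catalytic core, was below 1 in all 12 WT types, from 0.336 in plasmacytoid DC to 0.887 in choroid plexus. It passed 1 only in mature neutrophils (1.13) and choroid plexus (1.03) of the Stat4fl/flCD11cCre library.

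Between genotypes, the member share over all kept cells was 1.83% in WT and 1.67% in Stat4fl/flCD11cCre, a log2 ratio of -0.13. The cells were not the same mix: microglia, low in these genes, were 26.6% of kept cells in WT and 44.7% in Stat4fl/flCD11cCre. Within types the differences were small. The log2 ratio of the share, Stat4fl/flCD11cCre over WT, was -0.16 (interval -0.17 to -0.16) in microglia, -0.18 (-0.21 to -0.15) in neutrophils with granule genes and -0.066 (-0.098 to -0.034) in mature neutrophils. It was 0.099 (0.092 to 0.105) in classical monocytes, -0.026 in T cells, -0.021 in inflammatory macrophages, 0.017 (-0.010 to 0.045) in plasmacytoid DC and 0.012 (-0.011 to 0.034) in NK cells. For the last 2 types the interval held 0. Set against the median of all genes tested, the value for mature neutrophils turned to 0.027 and that for inflammatory macrophages to 0.028. In cells of 2500 to 10000 UMIs these were -0.26 and -0.18. Over members longer than the median, T cells turned to 0.026 and inflammatory macrophages to 0.045.

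Few single members were 1.5-fold apart between genotypes, and all of those were lower in Stat4fl/flCD11cCre. There were 6 among 578 pairs of a member and a type. Microglia had 1 of 74, against 15.3% of all genes, and neutrophils with granule genes 3 of 72, against 18.9%. Mature neutrophils had 2 of 69, against 18.0%. There were 0 of 75 in classical monocytes (13.6% of all genes), 0 of 72 in inflammatory macrophages (7.21%), 0 of 71 in plasmacytoid DC (9.95%), 0 of 73 in T cells (7.21%) and 0 of 72 in NK cells (7.66%). No p was computed with 1 library a genotype. The member in microglia was Atp5k, subunit e, which helps ATP synthases pair up, at 185 and 115 CPM (log2 -0.68, interval -0.74 to -0.62). In neutrophils with granule genes they were Ndufc1 (89.4 and 48.5 CPM), Uqcr11 (110 and 68.3 CPM) and the core subunit Ndufs8 (52.1 and 29.5 CPM). In mature neutrophils they were Ndufa3 (245 and 154 CPM) and Uqcrc1, a core protein of complex III, at 40.6 and 20.7 CPM from 42 and 40 UMIs.

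**Figure D4:**
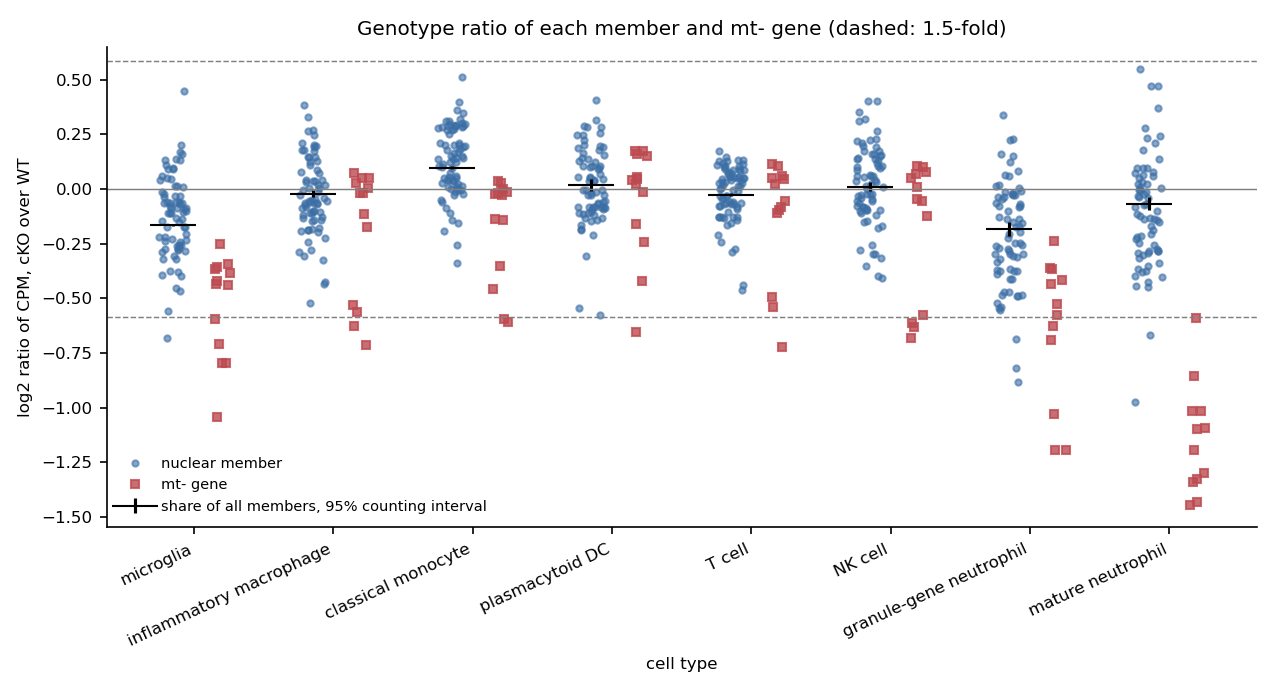
Log2 ratio of CPM, Stat4fl/flCD11cCre (cKO) over WT (vertical), for each member (circles) and each mt- gene (squares) with at least 50 UMIs in each of 8 cell types; black bars are the ratio of the summed member share with its 95% counting interval, and dashed lines mark 1.5-fold. Most members lie inside the dashed lines in every type, and the mt- genes of mature neutrophils all lie beyond them.

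In microglia the shift was broad and shallow, with a median member at -0.11 and 56 of 74 members below 0, while the median of all genes was 0.07 and 39.9% of them were below 0. The share of complex I had a log2 ratio of -0.074, complex III -0.21, complex IV -0.23 and complex V -0.19. The mt- share was 1.83% and 1.35% (log2 -0.44), with 13 of 13 mt- genes below 0 and 5 of 13 past 1.5-fold. Other mitochondrial lists had ratios near 0: the summed share of complex II, encoded by Sdha to Sdhd, had a log2 ratio of 0.043, that of 31 assembly factors 0.020 and that of 12 genes of the tricarboxylic acid cycle 0.031. Of the assembly factors and of these cycle genes 0 were past 1.5-fold. The share of glycolysis genes had a log2 ratio of -0.30, and 85 of 93 Rpl and Rps symbols were below 0. WT microglia also held more cycling cells, 10.3% against 3.64% with at least 3 of 19 proliferation genes. In microglia with no UMI of those genes the member share was 1.13% and 1.02%, and in cycling microglia 1.41% and 1.43%.

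Classical monocytes went the other way, with a median member at 0.14 and 15 of 75 members below 0. The median of all genes was -0.0075, and 51.0% of them were below 0. Complex I had the largest ratio, 0.15, with shares of 0.63% and 0.70%. Of 13 mt- genes 11 were below 0, and their share was 2.02% and 1.96%. Here 7.46% of WT and 14.2% of Stat4fl/flCD11cCre monocytes were cycling, and all 19 proliferation genes were past 1.5-fold upward. The member share was 2.54% and 2.90% in cycling monocytes and 2.15% and 2.16% in those with no proliferation UMI. Among the latter the log2 ratio was 0.0041. In monocytes of 2500 to 10000 UMIs it was -0.012, below 0. In T cells cycling cells also had the higher share, 2.52% and 2.56% against 2.17% and 2.08%. Cycling cells were deeper in each of these types (medians of 15457 and 19660 UMIs against 6828 and 8987 in monocytes). Cycling and other cells were not compared at matched depth, so the part of depth in the higher share was not tested.

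In mature neutrophils the mitochondrial transcripts differed more than the nuclear ones. The member share was 1.20% and 1.15%, the mt- share 1.11% and 0.563% (log2 -0.98), and all 12 mt- genes with enough UMIs were past 1.5-fold downward. The nuclear to mt- ratio went from 1.08 to 2.04. The difference sat in part of the cells: the median neutrophil had 0.399% and 0.338% mt- UMIs, while the 90th percentile was 2.78% and 0.848%. Of the WT cells 15 had over 5% mt- UMIs and of the others 0; leaving out all cells above 5% gave a log2 change of the ratio of 0.63 in place of 0.92.

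The members that were lower in Stat4fl/flCD11cCre in all types had short transcripts. Of 69 members with enough UMIs in all 8 types, 8 were below 0 in every type (Atp5e, Atp5k, Ndufa3, Cox6b1, Atp5mpl, Cox7c, Ndufa6 and Atp5md). Another 2 were above 0 in every type. The same counts over all genes are not given here, so whether 8 of 69 is unusual was not tested. The relation to length was looked for after the values were seen. Atp5k has the shortest transcript of all members, 321.5 bases as the median of its annotated forms, where the median member has 629, and its median log2 ratio over the 8 types was -0.43. In microglia Spearman's rho between length and log2 ratio was 0.51 over 74 members, with medians of -0.23 for the 37 shorter and -0.059 for the 37 longer ones. In classical monocytes rho was 0.47 and the medians were 0.039 and 0.20. Over the members rho was 0.20 in mature neutrophils and 0.052 in neutrophils with granule genes. Over all genes tested rho was 0.10 in microglia and -0.17 in classical monocytes.

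Among the mt- genes with enough UMIs in all 8 types, the 3 shortest had the lowest median ratios. They were mt-Atp8 (204 bases, median log2 ratio -0.68), mt-Nd4l (-0.62) and mt-Nd3 (-0.58). The longer ones followed no order of length: mt-Atp6 (681 bases) was at 0.040, mt-Nd1 (957 bases) at -0.12 and mt-Nd5 (1824 bases) at -0.16, and mt-Co1 (1545 bases) was below 0 in all 8 types. Of the shortest, mt-Atp8 shares a transcript with mt-Atp6, and mt-Nd4l with mt-Nd4. In classical monocytes mt-Atp8 was at 94.6 and 62.6 CPM (log2 -0.60), while mt-Atp6 was at 4069 and 4149 CPM (log2 0.03). There mt-Nd4l was at 181 and 119 CPM (log2 -0.61), while mt-Nd4 was at 965 and 951 CPM (log2 -0.02). Whether library preparation took part in the lower values of short transcripts was not tested.

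**Figure D5:**
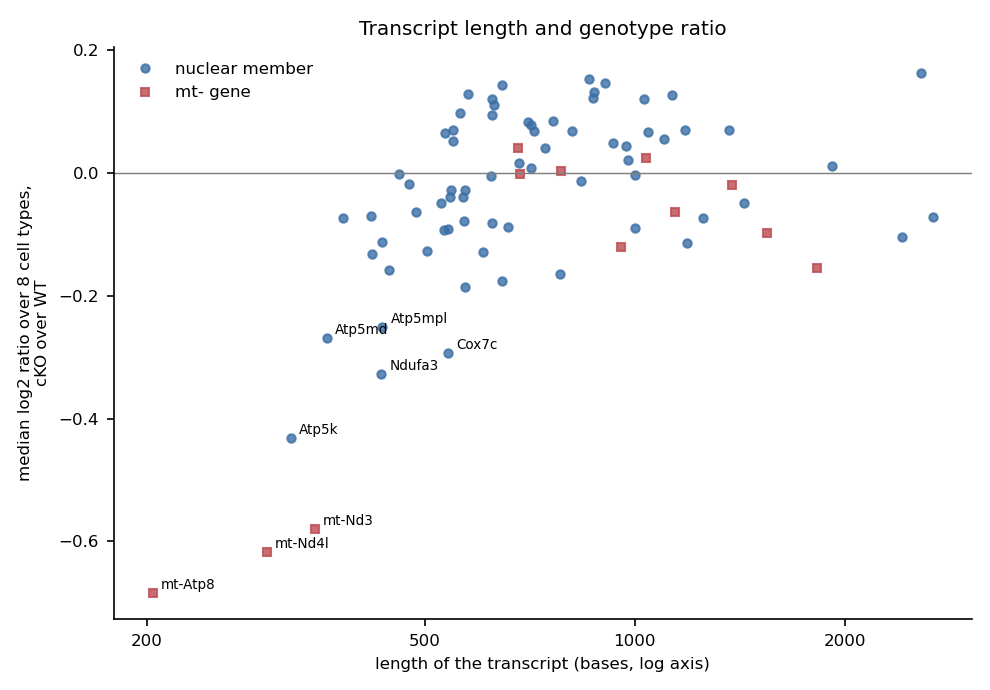
Median log2 ratio over 8 cell types, Stat4fl/flCD11cCre (cKO) over WT (vertical), against transcript length in bases (horizontal, log axis), for nuclear members (circles) and mt- genes (squares) with enough UMIs in all 8 types. Atp5k (-0.43) and the 3 shortest mt- genes (-0.58 to -0.68) lie at the lower left, while the longer mt- genes, from mt-Atp6 (0.040) to mt-Nd5 (-0.16), follow no order of length.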

How the data were processed

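The deposited matrices give UMI counts for each gene in each barcode, without normalization. The authors produced them with version 7.0.0 of Cell Ranger, which the file headers name. Other names in the submitters' processing notes are mm10, bcl2fastq, STAR, Seurat and R 4.3.0, with no role. Not given in the sources used here are the release of the annotation, any counting of intronic reads and any removal of doublets. The 5 antibody tags in the matrices were left out.

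The labels' genotype set the groups. Barcodes with at least 500 genes, at least 1000 gene UMIs and under 10% mt- UMIs were kept, which left 122244200 UMIs in WT and 119793871 in Stat4fl/flCD11cCre. Cell types came from lists of 6 to 8 markers for each of 20 types, none of them members. The lead of 2 markers over any other type was chosen after marker counts were seen. Types with at least 100 cells in each library were compared between genotypes. UMIs were summed per library and type with numpy 2.4.6, scipy 1.17.1 and pandas 2.3.3. Shares have exact Clopper-Pearson intervals, CPM exact Poisson intervals, and ratios exact conditional binomial intervals, all at 95%. UMIs are counted molecules, and these intervals cover counting error only. A gene was compared with at least 50 UMIs over both libraries, and 1.5-fold was called. The ratio step was tested on simulated data.

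The members and lists were chosen with earlier results of these data known. Named are the 3 members of each complex with the most UMIs, the 3 with the widest range over types and those past 1.5-fold between genotypes; others were named after their values were seen. Values of 1 member are not reported here. Transcript lengths came from GENCODE M21 and promoters from RefSeq (GRCm38.p6). The alternatives were other mt- ceilings, gates, filters, folds and denominators, and leaving out the 10% of barcodes with the highest Scrublet scores (scanpy 1.11.5); doublets were not otherwise removed.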

Additional observations from a re-analysis of the deposited data

Results flagged for a closer look

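Cox6a2, the heart and muscle isoform of subunit 6a of complex IV, is left out of the member list by its rule, yet it was the isoform with the clearest signal in plasmacytoid DC, at 1497 CPM in WT and 4328 CPM in Stat4fl/flCD11cCre (log2 1.53, interval 1.44 to 1.62). In choroid plexus epithelium, where Cox8b, Cox6b2 and Cox7a1 were found, Cox6a2 had 3 and 0 UMIs. The common isoform Cox6a1 was at 262 CPM in plasmacytoid DC of both libraries.

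Ndufb1-ps, left out because its symbol holds -ps, was counted at 331 CPM in WT microglia and 191 CPM in Stat4fl/flCD11cCre microglia. It was at 867 and 653 CPM in classical monocytes and was lower in Stat4fl/flCD11cCre in all 12 types, with log2 ratios from -0.79 in microglia to -0.34 in plasmacytoid DC.

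The log2 ratio of the member share between genotypes was -0.16 in microglia and 0.099 in classical monocytes, in opposite directions. In monocytes of 2500 to 10000 UMIs it was -0.012, and in those without a proliferation UMI 0.0041. With 1 library per genotype this difference was not tested.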

How the results depend on the processing

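Of 184 values under alternatives, 86 moved by less than counting error. The sign changed in 14, of which 9 were in plasmacytoid DC and NK cells, whose reported interval held 0. Alternatives on marker lead, depth, cycling cells and transcript length were chosen after seeing the data. No paired analysis was possible because there is 1 library per genotype and no result comes from a test.

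The genotype ratio stayed negative in microglia under all 12 alternatives, while in classical monocytes it was close to 0 without proliferation UMIs and below 0 between 2500 and 10000 UMIs. The ratio (log2) moved as follows. With mt- UMIs under 5% it was 0.087 in classical monocytes. Without the 10% highest Scrublet scores it was -0.19 in microglia, 0.091 in classical monocytes, 0.049 in plasmacytoid DC and -0.12 in granule-gene neutrophils. As a share of UMIs without mt- and ribosomal protein genes it was -0.21 in microglia, 0.12 in classical monocytes, -0.017 in plasmacytoid DC, -0.037 in T cells, -0.045 in NK cells and -0.10 in mature neutrophils. As a mean over cells it was -0.17 in microglia, 0.081 in classical monocytes and -0.053 in T cells. Without the 5 members with most UMIs it was -0.14 in microglia, 0.12 in classical monocytes and -0.016 in T cells. Minus the median of all genes tested it was -0.24 in microglia, 0.028 in inflammatory macrophages, 0.11 in classical monocytes, -0.026 in plasmacytoid DC, -0.040 in T cells, -0.032 in NK cells, -0.050 in granule-gene neutrophils and 0.027 in mature neutrophils. With 3 markers more than any other type it was -0.044 in inflammatory macrophages, 0.074 in classical monocytes, -0.029 in plasmacytoid DC and -0.031 in mature neutrophils. In cells of 2500 to 10000 UMIs it was -0.19 in microglia, -0.18 in inflammatory macrophages, -0.012 in classical monocytes, -0.074 in T cells, -0.012 in NK cells, -0.13 in granule-gene neutrophils and -0.26 in mature neutrophils. In cells without a proliferation UMI it was -0.15 in microglia, -0.045 in inflammatory macrophages, 0.0041 in classical monocytes, -0.059 in T cells, -0.033 in NK cells and -0.21 in granule-gene neutrophils. Over members longer than the median it was -0.078 in microglia, 0.045 in inflammatory macrophages, 0.18 in classical monocytes, 0.076 in plasmacytoid DC, 0.026 in T cells, 0.083 in NK cells, -0.14 in granule-gene neutrophils and -0.031 in mature neutrophils. Apart from the alternatives' own construction, causes were not tested.

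The log2 ratio of the member share over classical monocytes moved as follows, with its direction kept throughout. With mt- UMIs under 5% it was -0.88 (WT) in microglia and 1.90 (WT) and 1.94 (Stat4fl/flCD11cCre) in choroid plexus. With mt- UMIs under 20% it was 1.80 (WT) and 1.67 (Stat4fl/flCD11cCre) in choroid plexus. Without the 10% highest Scrublet scores it was -0.93 (WT) and -1.22 (Stat4fl/flCD11cCre) in microglia and 1.91 (WT) in choroid plexus. As a share of UMIs without mt- and ribosomal protein genes it was -1.0 (WT) and -1.34 (Stat4fl/flCD11cCre) in microglia and 1.71 (WT) and 1.57 (Stat4fl/flCD11cCre) in choroid plexus. As a mean over cells it was -0.92 (WT) and -1.17 (Stat4fl/flCD11cCre) in microglia and 1.90 (WT) and 1.77 (Stat4fl/flCD11cCre) in choroid plexus. Without the 5 members with most UMIs it was -0.84 (WT) and -1.10 (Stat4fl/flCD11cCre) in microglia and 1.87 (WT) in choroid plexus. With 3 markers more than any other type it was -0.99 (WT) and -1.22 (Stat4fl/flCD11cCre) in microglia and 1.88 (WT) in choroid plexus. In cells of 2500 to 10000 UMIs it was -1.01 (WT) and -1.19 (Stat4fl/flCD11cCre) in microglia and 1.79 (Stat4fl/flCD11cCre) in choroid plexus.

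The log2 change of the nuclear to mt- ratio between genotypes moved as follows. With mt- UMIs under 5% it was 0.26 in microglia and 0.63 in mature neutrophils. With mt- UMIs under 20% it was 1.06 in mature neutrophils. Without the 10% highest Scrublet scores it was 0.26 in microglia and 1.01 in mature neutrophils. With 3 markers more than any other type it was 0.32 in microglia and 1.21 in mature neutrophils. In cells of 2500 to 10000 UMIs it was 0.38 in microglia and 1.21 in mature neutrophils.

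The 6 of 578 pairs of a member and a type that were 1.5-fold apart became 11 of 586 with at least 20 UMIs. They became 14 of 594 with any UMI in both libraries, 71 of 578 when a ratio of 5 to 4 was called and 0 at 2-fold. The same counts over all genes at these settings are not given here. Depth limits the rarest members and types: 7 members had under 1000 UMIs in either library, and cDC1, cDC2, nonclassical monocytes and choroid plexus had under 100 cells in a library. Gates from transcripts, free RNA and doublets limit what a type name means, and 1 pooled library per genotype leaves the spread between mice unknown.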
